A study of Homo sapiens with 24 samples.

Results

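The miR-148/miR-152 family was described in small RNA libraries of OV90, an established human ovarian carcinoma cell line. Its members were chosen by name, as the 5 entries hsa-miR-148a-3p, hsa-miR-148a-5p, hsa-miR-148b-3p, hsa-miR-148b-5p and hsa-miR-152-3p of the 2656 mature miRNAs counted. All 5 were among the 905 miRNAs that passed the filter on low counts. The 24 libraries formed 6 groups of 4, which carried a control shRNA (shNeg) or one directed at RELA (shRELA) or RELB (shRELB), in adherent or spheroid culture. RELA and RELB are NF-κB transcription factors, and the comparisons ask how silencing either one changes miRNAs in each culture. All cells, controls included, received 1 µg/ml doxycycline, which switches the shRNAs on, for 72 h. The labels name the control libraries shNeg in their titles and give their genotype as wild type. Adherent cells grew in RPMI medium with tetracycline-free fetal calf serum, and spheroids in ultra-low attachment plates in a serum-replacement medium with EGF and FGF, so culture form and medium changed together and cannot be told apart. The table holds mature miRNAs and no mRNA, so neither the knockdown of RELA and RELB nor markers of the cell line were measured in it.

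A miRNA is cut from a hairpin whose arms give a 5p and a 3p strand. One strand, the guide, is loaded into an Argonaute protein and pairs with target mRNAs mainly through its seed, bases 2 to 8 from the 5′ end. The other strand is mostly degraded. In the miR-148/miR-152 family the 3p strands are the usual guides, and they are known as repressors of DNMT1, the methyltransferase that copies DNA methylation onto newly made DNA. The family has mostly been described as tumor suppressive, with low levels in several epithelial cancers.

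The mature sequences are shown because the 3p members share 1 seed and the 5p strands do not. They were taken from RefSeq (GRCh38.p14), which gave 4 of the 5 members and hsa-miR-152-5p, the other arm of the MIR152 hairpin, which is not a member. Capitals mark the seed.
hsa-miR-148a-3p: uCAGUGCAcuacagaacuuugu
hsa-miR-148b-3p: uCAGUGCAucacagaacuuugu
hsa-miR-152-3p: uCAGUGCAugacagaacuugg
hsa-miR-148b-5p: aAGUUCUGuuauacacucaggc
hsa-miR-152-5p: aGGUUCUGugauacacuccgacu
Of 2370 human mature names in the RefSeq table, these 3 3p members were the 3 with the seed CAGUGCA. Counting positions from 1 at the 5′ end, hsa-miR-148a-3p and hsa-miR-148b-3p differ by C9U and U10C, with 20 of 22 bases identical. Between hsa-miR-148b-3p and hsa-miR-152-3p the differences are C10G and U20G, with 19 of 21 compared bases identical. hsa-miR-148a-3p and hsa-miR-152-3p differ by C9U, U10G and U20G. Reads of the 3p members are thus told apart by 2 or 3 bases, and the number of mismatches allowed in assigning reads was not given in the sources used here. Every count of the 5 members was whole, so no read of theirs was entered as a fraction.

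The hairpins lie at 3 loci, each inside an intron of a host gene on the same strand in GENCODE release 44 (GRCh38). They are shown with the arms above in capitals, to place those strands. hsa-miR-148a-5p was counted too, but RefSeq gave no sequence for it, so its arm of MIR148A is left in small letters.
MIR148A, chr7:25949919-25949986, minus strand: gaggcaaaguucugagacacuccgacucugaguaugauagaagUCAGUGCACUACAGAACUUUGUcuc
MIR148B, chr12:54337216-54337314, plus strand: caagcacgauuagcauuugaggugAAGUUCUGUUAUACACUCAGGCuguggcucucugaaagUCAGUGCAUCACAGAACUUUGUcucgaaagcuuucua
MIR152, chr17:48037161-48037247, minus strand: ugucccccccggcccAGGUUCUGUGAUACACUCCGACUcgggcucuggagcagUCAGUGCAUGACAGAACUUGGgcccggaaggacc
MIR148B lies in intron 1 of COPZ1 and MIR152 in intron 1 of COPZ2, genes for zeta subunits of the coatomer, the coat of vesicles that return from the Golgi. MIR148A lies in intron 1 of ENSG00000270933, a long non-coding RNA gene. MIR148B also lies in intron 1 of ENSG00000258344, another long non-coding RNA gene.

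The letters that pair with the shared seed were searched for in the 3′ untranslated regions (UTRs) of the DNA methyltransferases, since DNMT1 is the target the family is known for. The motif was TGCACTG, on the strand of the transcript only, in the canonical GENCODE transcript of each gene. The DNMT1 3′ UTR, 321 bases long, held 1 match, starting at its base 48, at chr19:10133613-10133619 on the minus strand. It is shown with its flanks, the match in capitals: ccccaacaTGCACTGatgttgtg. The base after the match is A, as in the strongest class of seed match. Among 1573 canonical 3′ UTRs within 20% of that length, 3.05% held the motif, against 13.8% of all 19539 searched. DNMT3A and DNMT3B, the methyltransferases that set new marks, held 0 matches in 3′ UTRs of 6405 and 1453 bases, and 1 and 2 matches in their coding sequences. A match is a description of the letters and says nothing of binding here.

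Depth differed between the cultures. Adherent libraries held 3797176 to 8283546 counts and spheroid libraries 959134 to 3580932, with the lowest totals in spheroid shNeg. Values below are CPM, counts put on a common library total, scaled by TMM, a method that corrects library sizes for differences in composition. Spheroid shNeg replicate 1 stood apart, with a count on 432 miRNAs, where the other spheroid shNeg libraries had one on 814 to 887. It held 0 counts of hsa-miR-152-3p and of hsa-miR-148b-5p. A count of 0 there allows up to 2.46 CPM at 3 counts per library, by library total without TMM scaling. Fitted values of the members that use spheroid shNeg are therefore also given without it.

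Over all 24 libraries, hsa-miR-148a-3p averaged 2445 CPM and hsa-miR-148b-3p 1983 CPM, ranks 46 and 49 by mean level among the 905 miRNAs tested. The third 3p member, hsa-miR-152-3p, averaged 39.4 CPM, rank 232. The 5p strands averaged 41.7 CPM for hsa-miR-148a-5p and 17.3 CPM for hsa-miR-148b-5p, ranks 228 and 282. hsa-miR-152-5p had 3 counts in 1 adherent shRELB library, 1 count in 1 spheroid shRELB library and 0 in the other libraries, and was not tested. The family in OV90 was thus mainly hsa-miR-148a-3p and hsa-miR-148b-3p, with hsa-miR-152-3p near the level of a 5p strand.

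**Figure D1:**
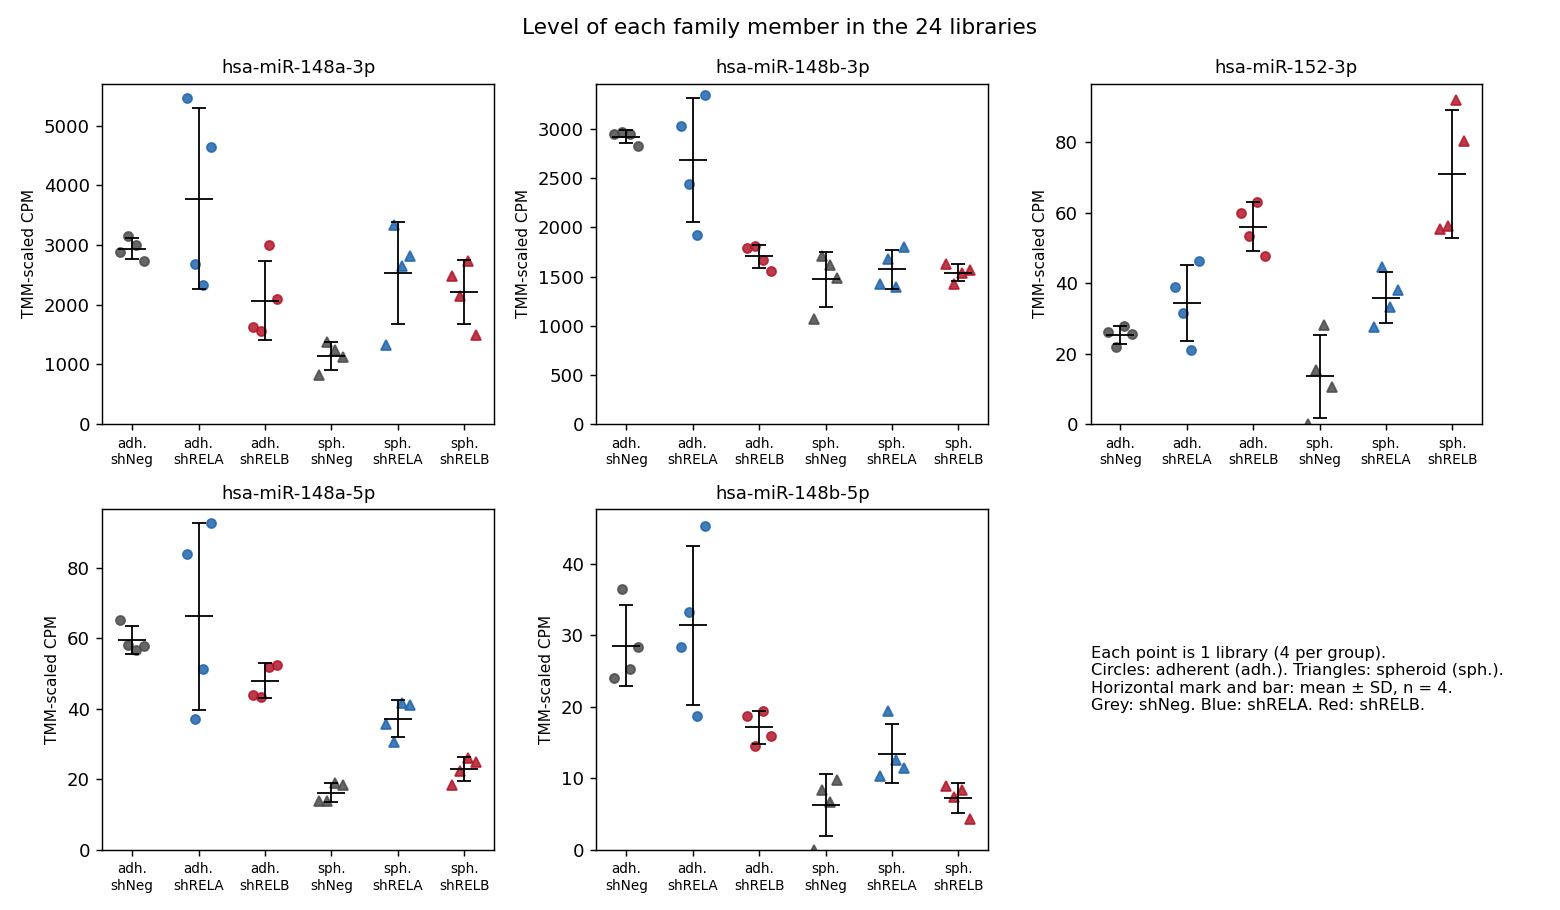
Level of each member in every library, in TMM-scaled CPM on the vertical axis, for the 6 groups on the horizontal axis (circles adherent, triangles spheroid; horizontal marks and bars are mean ± SD, n = 4). In spheroids, the 4 shRELB libraries hold 55.4 to 92.1 CPM of hsa-miR-152-3p and the 4 shNeg libraries 0 to 28.2 CPM.

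Values of single libraries are given in the order of their replicate number, which carries no order of its own. hsa-miR-148a-3p stood at 2890.4, 3146, 2994 and 2731 CPM in adherent shNeg and at 819, 1382, 1235 and 1129 CPM in spheroid shNeg. With shRELA it stood at 5473, 2675, 2329.5 and 4643 CPM in adherent cells and at 1328, 3344, 2652 and 2817 CPM in spheroids. With shRELB the values were 1625, 1557, 2998 and 2089 CPM in adherent cells and 2474, 2141, 2729 and 1489.7 CPM in spheroids. All 4 spheroid shNeg libraries lay below all 4 of adherent shNeg and of both shRELB groups. For the shRELB groups this held under TMM scaling only. By library totals spheroid shNeg replicate 2, at 1887 CPM, lay above adherent shRELB replicates 1 and 2 (1591 and 1475 CPM) and spheroid shRELB replicate 4 (1450 CPM). By mean the order was adherent shRELA (3780.0), adherent shNeg (2940.3), spheroid shRELA (2535), spheroid shRELB (2208), adherent shRELB (2067) and spheroid shNeg (1141 CPM). Only the last of these neighbours were apart in every library, under TMM scaling. The spread was widest with shRELA, at 1521 CPM (SD, n = 4) in adherent cells against 175 CPM for shNeg.

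hsa-miR-148b-3p, which shares the seed but comes from another locus, had the lowest coefficient of variation of the 5 members in 5 of the 6 groups, all but spheroid shNeg, where hsa-miR-148a-5p was lower (17.1% against 19.2%). It stood at 2952, 2964, 2947 and 2826 CPM in adherent shNeg and at 1073, 1714, 1618 and 1483 CPM in spheroid shNeg. With shRELA it stood at 3026, 2442, 1925 and 3348 CPM in adherent cells and at 1423, 1679, 1392 and 1797 CPM in spheroids. With shRELB it stood at 1788, 1813, 1670.4 and 1555 CPM in adherent cells and at 1628, 1421, 1539.7 and 1568 CPM in spheroids. Adherent shRELB therefore overlapped the spheroid groups, and lay below all 8 other adherent libraries. In the order of means, adherent shNeg (2922 CPM) and adherent shRELA (2685 CPM) overlapped, and adherent shRELB (1707 CPM) lay apart from both. The spheroid groups, at 1573 (shRELA), 1539 (shRELB) and 1472 CPM (shNeg), overlapped one another and adherent shRELB.

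hsa-miR-152-3p followed another order. It stood at 26.2, 21.9, 28.0 and 25.4 CPM in adherent shNeg and at 0, 15.3, 28.2 and 10.5 CPM in spheroid shNeg. With shRELA the values were 39.0, 31.5, 20.9 and 46.2 CPM in adherent cells and 27.6, 44.6, 33.1 and 38.0 CPM in spheroids. With shRELB they were 60.1, 53.3, 63.2 and 47.7 CPM in adherent cells and 55.4, 56.2, 92.1 and 80.3 CPM in spheroids. All 8 shRELB libraries lay above all 16 others. The means fell from spheroid shRELB (71.0) and adherent shRELB (56.1) through spheroid shRELA (35.9), adherent shRELA (34.4) and adherent shNeg (25.4) to spheroid shNeg (13.5 CPM), and the step from shRELB to shRELA was the only one between neighbours without overlap. These values rest on 82 to 369 counts in adherent libraries and on 0 to 280 in spheroid libraries.

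The 5p strands were highest in adherent cells. hsa-miR-148a-5p stood at 65.3, 58.1, 56.8 and 57.8 CPM in adherent shNeg and at 13.9, 13.7, 19.0 and 18.3 CPM in spheroid shNeg. With shRELA it stood at 84.1, 37.0, 51.2 and 92.7 CPM in adherent cells and at 35.6, 30.5, 41.6 and 41.0 CPM in spheroids. With shRELB it stood at 43.8, 43.5, 51.9 and 52.6 CPM in adherent cells and at 18.5, 22.3, 26.0 and 25.0 CPM in spheroids. In spheroids the 4 shRELA libraries lay above all others, and shNeg and shRELB overlapped.

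hsa-miR-148b-5p was the least abundant member. It stood at 24.04, 36.5, 25.3 and 28.4 CPM in adherent shNeg and at 0, 8.40, 6.67 and 9.83 CPM in spheroid shNeg. With shRELA the values were 28.4, 33.2, 18.7 and 45.3 CPM in adherent cells and 10.3, 19.4, 12.5 and 11.4 CPM in spheroids. With shRELB they were 18.7, 14.5, 19.3 and 15.9 CPM in adherent cells and 8.96, 7.32, 8.37 and 4.30 CPM in spheroids. The spheroid shNeg values rest on 0 to 14 counts and the spheroid shRELB values on 15 to 22. For every member, adherent shRELA replicates 1 and 4 lay above replicate 3, and for all but hsa-miR-148b-5p also above replicate 2.

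When neither gene was silenced, 3 of the 5 members, hsa-miR-148a-3p, hsa-miR-148a-5p and hsa-miR-148b-5p, were called lower in spheroids than in adherent cells. The log2 values of the other members, hsa-miR-148b-3p and hsa-miR-152-3p, were also below 0 under each scaling tried, without a call. A call needed a false discovery rate (FDR) below 0.01, from edgeR's quasi-likelihood test adjusted over all 905 miRNAs, and a fold change above 2. In this comparison 20.9% of all miRNAs tested were called lower and 21.3% higher. The median log2 fold change was -1.37 for the members and -0.26 for all miRNAs tested. Fewer cells with a miRNA and less of it per cell cannot be told apart in these bulk libraries.

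hsa-miR-148a-3p was 2.58-fold lower in shNeg spheroids (log2 fold change -1.37, SE 0.26, FDR 3.91e-05), and its 5p strand 3.64-fold lower (log2 -1.86, SE 0.27, FDR 4.02e-07), both without overlap between the groups. Scaling by library totals left hsa-miR-148a-3p at -0.91 and a filter at a mean of 10 CPM at -0.99, both short of the fold threshold. hsa-miR-148b-5p was 4.54-fold lower (log2 -2.18, SE 0.42, FDR 4.47e-05) and its groups did not overlap. In a fit of the groups compared alone its FDR was 0.0137. hsa-miR-148b-3p was 1.99-fold lower (log2 -0.99, SE 0.17, FDR 8.58e-06), without overlap and just short of the fold threshold, which it crossed when any 1 of 5 libraries was left out, adherent shNeg replicate 4 (-1.01), spheroid shNeg replicate 2 or 3 (-1.07 and -1.04) or spheroid shRELB replicate 3 or 4 (-1.08 in each case). It also crossed it with no filter (-1.23), with limma (-1.01) and in a fit of the groups compared alone (-1.08). hsa-miR-152-3p had a log2 value of -0.86 (SE 0.41, FDR 0.0720) with overlapping groups, and its size rested on single libraries. It stood at -0.46 (FDR 0.173) without spheroid shNeg replicate 1 and was called at -1.56 (FDR 0.00327) without replicate 3, and at -1.11 (FDR 0.00303) with no filter. Without spheroid shNeg replicate 1 the 3 called members stood at -1.24, -1.80 and -1.79 in the order above and all 3 remained called, and hsa-miR-148b-3p stood at -0.86 (FDR 1.11e-05).

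In the knockdown cells fewer members were called lower in spheroids, and whether that number itself differed from shNeg was not tested. In shRELA cells hsa-miR-148b-5p was called, at 2.35-fold lower (log2 -1.23, SE 0.38, FDR 0.00682), although its groups overlapped. That call was lost when any 1 of 6 shRELA libraries was left out, adherent replicates 1, 2 and 4 or spheroid replicates 1, 3 and 4, with the value nearest 0, -1.002, without adherent replicate 4. It was also lost with limma (-1.14, FDR 0.0609), library totals (-1.05, FDR 0.0233), a filter at a mean of 10 CPM (-1.03, FDR 0.0140) and the replicate block (-1.24, FDR 0.0107). hsa-miR-148a-5p at -0.83 (FDR 0.00573) and hsa-miR-148b-3p at -0.77 (FDR 3.66e-04) passed the FDR without the fold threshold, and the first was called at -1.03 without adherent shRELA replicate 2. hsa-miR-148a-3p stood at -0.58 (FDR 0.0630) and hsa-miR-152-3p at 0.06 (FDR 0.912). In shRELA cells 15.8% of all miRNAs were called lower and 16.8% higher.

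In shRELB cells hsa-miR-148a-5p was called, at 2.08-fold lower in spheroids (log2 -1.06, SE 0.25, FDR 0.00101) without overlap. Without spheroid shRELB replicate 1 it stood at -0.97 and with a filter at a mean of 10 CPM at -0.96, short of the fold threshold. hsa-miR-148b-5p had a log2 value of -1.27 (FDR 0.0101) just over the threshold. It was called when spheroid shNeg replicate 1, 3 or 4 or adherent shRELA replicate 3 or 4 was left out, for example at -1.28 (FDR 2.62e-04) without spheroid shNeg replicate 1. It was also called with no filter, median-ratio size factors, DESeq2, the likelihood ratio test and a fit of the groups compared alone, at -1.27 to -1.47. The guides did not pass the test, with log2 values of 0.10 for hsa-miR-148a-3p (95% interval -0.43 to 0.62), -0.15 for hsa-miR-148b-3p (-0.49 to 0.20) and 0.34 for hsa-miR-152-3p (-0.41 to 1.09). The background was 11.4% called lower and 13.6% higher. Over the 3 culture comparisons 5 of 15 member values were called, each of them lower. By the same rule single comparisons had 11.4 to 20.9% of all miRNAs called lower and 13.6 to 21.3% higher. By FDR alone 8 of the 15 passed, beside 37.4% of all values tested.

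**Figure D2:**
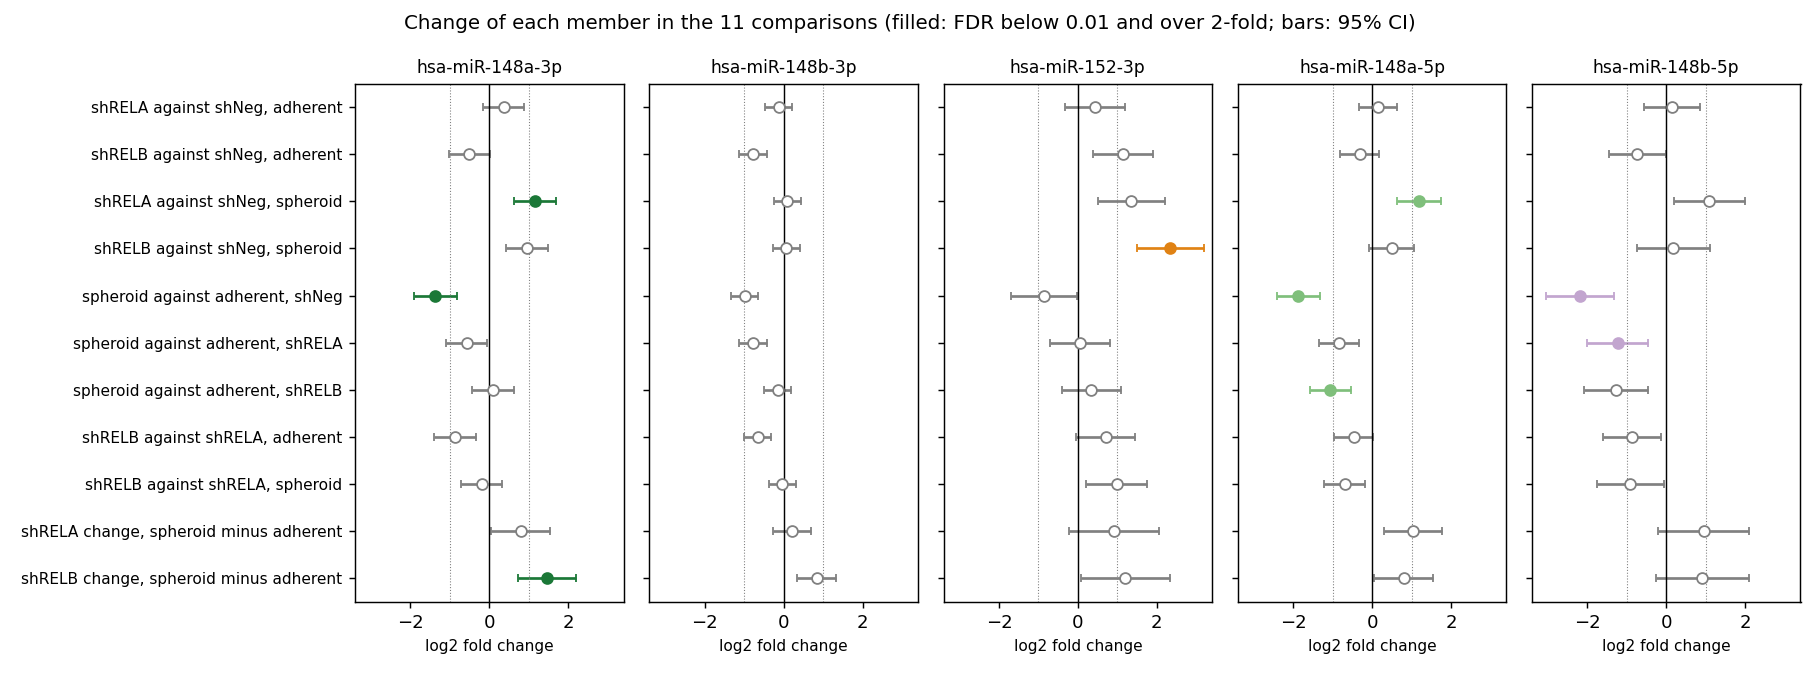
Log2 fold change of each member (horizontal axis) in the 11 comparisons (rows), with 95% intervals. Filled points passed FDR 0.01 and a fold change of 2, and dotted lines mark 2-fold. In spheroids against shNeg, the largest change is hsa-miR-152-3p with shRELB, at a log2 value of 2.34.

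Both strands of miR-148a rose with RELA silenced in spheroids. hsa-miR-148a-3p was 2.22-fold higher with shRELA than with shNeg (log2 1.15, SE 0.26, FDR 9.87e-04), and the groups overlapped by 1 library, shRELA replicate 1 at 1328 CPM. Without shRELA replicate 2 its value was 0.99, just short of the fold threshold. hsa-miR-148a-5p was 2.28-fold higher (log2 1.19, SE 0.27, FDR 0.00109), without overlap. In a fit of the groups compared alone its FDR was 0.0402. Here 7.51% of all miRNAs were called higher and 7.62% lower, and the median log2 value was 1.15 for the members and 0.09 for all miRNAs.

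The other members were not called with shRELA in spheroids. hsa-miR-152-3p stood 2.56-fold above shNeg (log2 1.36, SE 0.42, FDR 0.0139), with 1 shNeg library, replicate 3, in the range of shRELA. Without that library the value was 2.06 (FDR 5.68e-04), a call, and without replicate 1 it was 0.95 (FDR 0.0119). It was also called with no filter (1.35), DESeq2 (1.22) and the likelihood ratio test (1.37). hsa-miR-148b-5p stood at 1.09 (SE 0.44, FDR 0.0649) and at 0.70 without spheroid shNeg replicate 1. hsa-miR-148b-3p had a log2 value of 0.10 (95% interval -0.25 to 0.44, FDR 0.707). Without spheroid shNeg replicate 1, hsa-miR-148a-3p stood at 1.02 and hsa-miR-148a-5p at 1.12, and both calls held. Scaling by library totals put them at 0.75 and 0.80 and a filter at a mean of 10 CPM at 0.92 and 0.97, and under either setting neither was called.

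With RELB silenced in spheroids, hsa-miR-152-3p rose 5.07-fold over shNeg (log2 2.34, SE 0.42, FDR 4.97e-05), the largest change of any member with a knockdown. The lowest shRELB library, at 55.4 CPM, lay above the highest shNeg library, at 28.2 CPM. Without spheroid shNeg replicate 1, the library with 0 counts, the value was 1.94 (FDR 5.29e-07), and without replicate 3 it was 3.05. In a fit of the 8 libraries compared alone the value was 2.34 with an FDR of 0.0202. In this comparison 7.29% of all miRNAs were called higher and 6.08% lower.

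hsa-miR-148a-3p with shRELB in spheroids was 1.93-fold above shNeg (log2 0.95, SE 0.26, FDR 0.00608), short of the fold threshold and without overlap in TMM-scaled CPM. It passed that threshold at 1.06 without spheroid shNeg replicate 2, and stood at 0.82 (FDR 0.00891) without replicate 1. Its 5p strand stood at 0.49 (SE 0.28, FDR 0.191), hsa-miR-148b-3p at 0.06 (95% interval -0.28 to 0.41) and hsa-miR-148b-5p at 0.18 (-0.75 to 1.12). All 5 log2 values were above 0 with either knockdown in spheroids, except that hsa-miR-148b-3p was below 0 with both, and hsa-miR-148b-5p with shRELB, under another scaling. The median was 0.49 for shRELB beside 0.16 for all miRNAs. Without spheroid shNeg replicate 1, hsa-miR-148b-3p was at -0.03 with shRELA and -0.06 with shRELB, and hsa-miR-148b-5p at -0.22 and hsa-miR-148a-5p at 0.43 with shRELB.

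**Figure D3:**
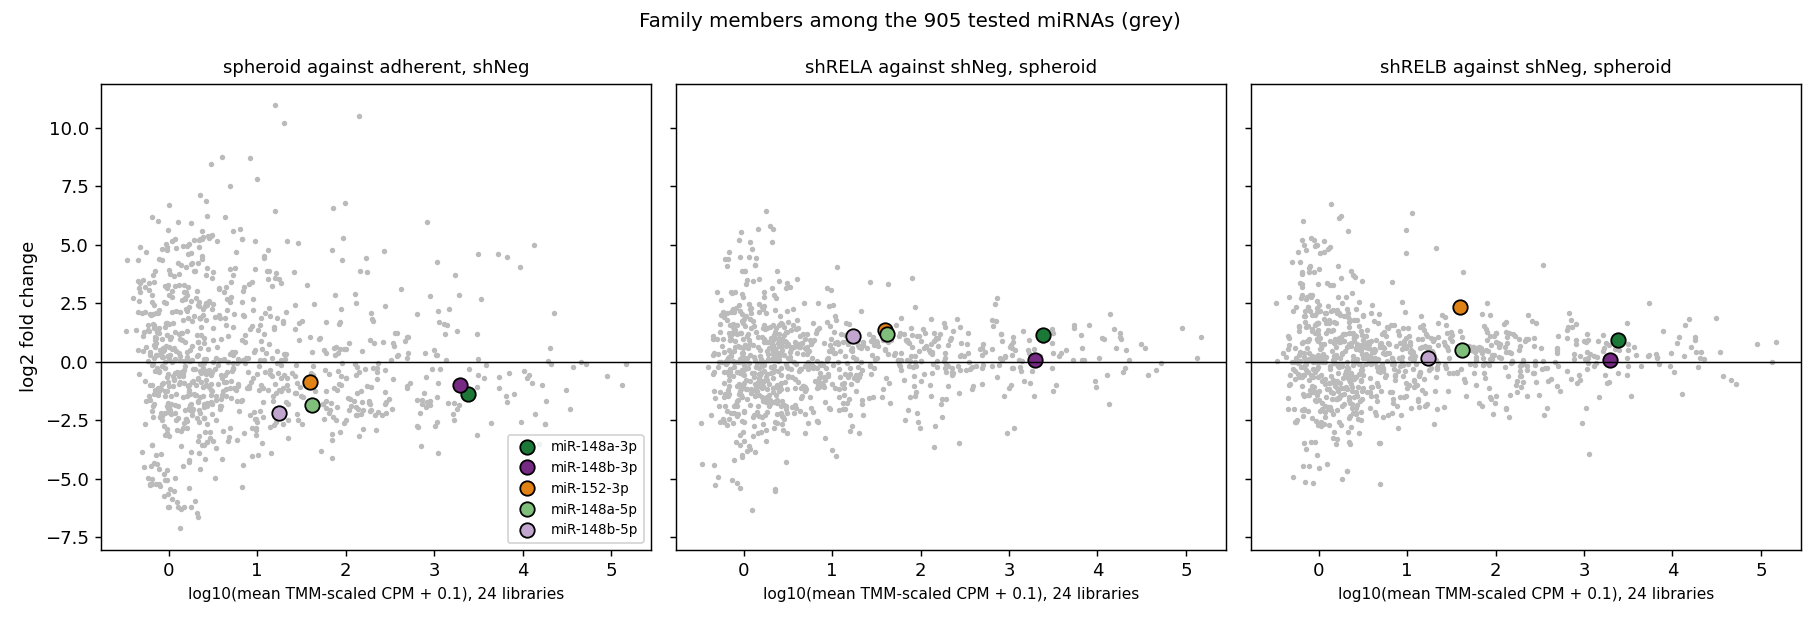
Log2 fold change (vertical axis) against the log10 of mean TMM-scaled CPM plus 0.1 (horizontal axis) for the 905 miRNAs tested in 3 comparisons, with the members in colour. In shNeg cells all 5 members lie below 0 in spheroids against adherent cells, and hsa-miR-152-3p lies at 2.34 with shRELB in spheroids.

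In adherent cells no member was called with either knockdown. With shRELA the log2 values ran from -0.12 for hsa-miR-148b-3p to 0.44 for hsa-miR-152-3p, all groups overlapped, and edgeR gave 0 members at an unadjusted p below 0.05. Neither DESeq2, limma nor the likelihood ratio test called a member there. The background with shRELA in adherent cells was 1.1% called higher and 2.65% lower.

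With shRELB in adherent cells the values of 2 guides lay on opposite sides of shNeg. hsa-miR-148b-3p was 1.71-fold lower than with shNeg (log2 -0.78, SE 0.17, FDR 0.00113), without overlap, and passed the FDR without the fold threshold. hsa-miR-152-3p was 2.21-fold higher (log2 1.14, SE 0.37, FDR 0.0389), without overlap, and passed the fold without the FDR threshold. Leaving out replicate 1 of spheroid shNeg, a library outside both groups, gave the same value with an FDR of 1.52e-04, a call, and in a fit of the groups compared alone the FDR was 9.07e-08. DESeq2 and the likelihood ratio test each called this 1 member, and so did edgeR with no filter (1.10, FDR 0.00402). hsa-miR-148a-3p stood at -0.51 (SE 0.26, FDR 0.221), hsa-miR-148a-5p at -0.31 (FDR 0.472) and hsa-miR-148b-5p at -0.73 (FDR 0.199). The groups did not overlap for 4 of the 5 members, all but hsa-miR-148a-3p, and 3 had an unadjusted p below 0.05. By library totals hsa-miR-148a-5p overlapped too, with shRELB replicate 3 at 56.4 CPM and shNeg replicate 3 at 51.1 CPM. The share of all miRNAs by either measure was not computed, so these counts have no background to be read against. Shares called by FDR and fold over all miRNAs were 3.54% higher and 3.54% lower. Over the 4 knockdown comparisons 3 of 20 member values were called. By the same rule single comparisons had 1.1 to 7.51% of all miRNAs called higher and 2.65 to 7.62% lower. By FDR alone 5 of the 20 passed, beside 11.8% of all values tested.

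The knockdowns were also compared with each other. Between shRELB and shRELA edgeR called 0 of 10 member values, and DESeq2, limma and the likelihood ratio test also 0. With edgeR 6 had an unadjusted p below 0.05, a measure whose share over all miRNAs was not computed. In adherent cells hsa-miR-148b-3p was 1.57-fold lower with shRELB (log2 -0.65, SE 0.17, FDR 0.00478), without overlap. It was the 1 of 10 values to pass by FDR alone, beside 11% of all values. hsa-miR-148a-3p stood at -0.87 (FDR 0.0132) and was called when adherent shRELA replicate 2, shRELA replicate 3 or shRELB replicate 3 was left out, at -1.005, -1.04 and -1.11. hsa-miR-152-3p stood at 0.70 in adherent cells (95% interval -0.05 to 1.45, FDR 0.188) and at 0.99 in spheroids (0.21 to 1.76, FDR 0.0728), without overlap in either culture. hsa-miR-148a-5p in spheroids stood at -0.70 (FDR 0.0607) and hsa-miR-148b-5p at -0.91 (FDR 0.136), both also without overlap. In adherent cells hsa-miR-148b-5p stood at -0.87 (FDR 0.0721), with overlap. In adherent cells 6.63% of all miRNAs were called higher with shRELB and 4.31% lower, and in spheroids 3.87% and 2.76%.

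Whether a knockdown acted differently in the cultures was tested as the change in spheroids minus the change in adherent cells. For hsa-miR-148a-3p this difference was called for shRELB, at a log2 value of 1.46 (SE 0.37, FDR 0.00496), from -0.51 in adherent cells to 0.95 in spheroids. The call did not hold under median-ratio size factors (1.30, FDR 0.0154), library totals (1.04, FDR 0.0594), a filter at a mean of 10 CPM (1.183, FDR 0.0119) or limma (1.499, FDR 0.0257). It was also lost when any 1 of 6 libraries was left out, adherent shNeg replicate 2, adherent shRELB replicates 1, 2 and 4 or spheroid shRELB replicates 1 and 3, at values of 1.33 to 1.47. Without spheroid shNeg replicate 1 it stood at 1.33 (FDR 0.00243).

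The difference for shRELB was 0.84 for hsa-miR-148b-3p (SE 0.24, FDR 0.0131) and 1.20 for hsa-miR-152-3p (SE 0.55, FDR 0.149). The second moved to 0.80 (FDR 0.135) without spheroid shNeg replicate 1 and to 1.90 (FDR 0.0128) without replicate 3, and the first to 0.72 (FDR 0.0157) without replicate 1. For shRELA the values ran from 0.22 for hsa-miR-148b-3p to 1.03 for hsa-miR-148a-5p (FDR 0.0531), and none was called. Without spheroid shNeg replicate 1 they ran from 0.09 to 0.96 for the same members, and the differences for shRELB of hsa-miR-148a-5p and hsa-miR-148b-5p stood at 0.74 and 0.51. For shRELA edgeR gave 2 of the 5 an unadjusted p below 0.05, and DESeq2, limma and the likelihood ratio test called 0. For shRELB it gave 4 of the 5 such a p, DESeq2 and the likelihood ratio test each called 1, and limma 0. The share of all miRNAs with such a p was not computed. All 10 differences were above 0, apart from hsa-miR-148b-3p with shRELA under 2 other scalings, and those of both knockdowns share the shNeg libraries. The median difference was 0.92 for the members and 0.17 for all miRNAs with shRELA, and 0.91 and 0.15 with shRELB. By library totals the medians of all miRNAs were -0.10 with shRELA and -0.26 with shRELB. Background shares were 4.31% higher and 3.31% lower for shRELA, and 4.64% and 3.87% for shRELB. By FDR alone 1 of 10 member values passed, beside 8.4% of all values.

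Because the 3p members share a seed, their sum was taken as the total of guides with that seed. It stood at 5888 ± 231 CPM (SD, n = 4) in adherent shNeg and at 2626 ± 529 CPM in spheroid shNeg, without overlap, and the spheroid mean was 2871 CPM without replicate 1. In adherent cells the sum was 6499.6 ± 2105 CPM with shRELA and 3830.1 ± 612 CPM with shRELB, and in spheroids 4144 ± 997 and 3818 ± 552 CPM. All 4 adherent shRELB libraries, at 3423 to 4731 CPM, lay below adherent shNeg, at 5582 to 6132 CPM. The 4 spheroid shRELB libraries, at 3138 to 4361 CPM, lay above spheroid shNeg, at 1892 to 3111 CPM. The shRELB means thus lay close together in the cultures, where those of shNeg lay far apart. Both separations of shRELB from shNeg rest on TMM scaling, and by library totals the sums overlapped in each culture. In spheroids hsa-miR-148a-3p and hsa-miR-148b-3p then stood at 1887 and 2340 CPM in shNeg replicate 2, and at 1450 and 1526 CPM in shRELB replicate 4.

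The make-up of that sum also differed between groups. hsa-miR-148a-3p made up 48.9 to 51.3% of it in adherent shNeg and 42.9 to 44.4% in spheroid shNeg, 2 narrow ranges that did not overlap. With shRELA its share was 52.0 to 64.1% in adherent cells and 47.8 to 66.0% in spheroids, and with shRELB 45.5 to 63.4% and 47.5 to 62.6%. In spheroids both knockdowns therefore lay above shNeg in every library. The share of hsa-miR-152-3p was 0.357 to 0.469% in adherent shNeg and 1.29 to 1.73% in adherent shRELB, and 0 to 0.980% in spheroid shNeg and 1.33 to 2.56% in spheroid shRELB. So hsa-miR-152-3p took a larger share with shRELB in every library of both cultures, yet stayed a small part of the guides with this seed. These are shares of reads, and adapter ligation can favour some sequences over others.

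**Figure D4:**
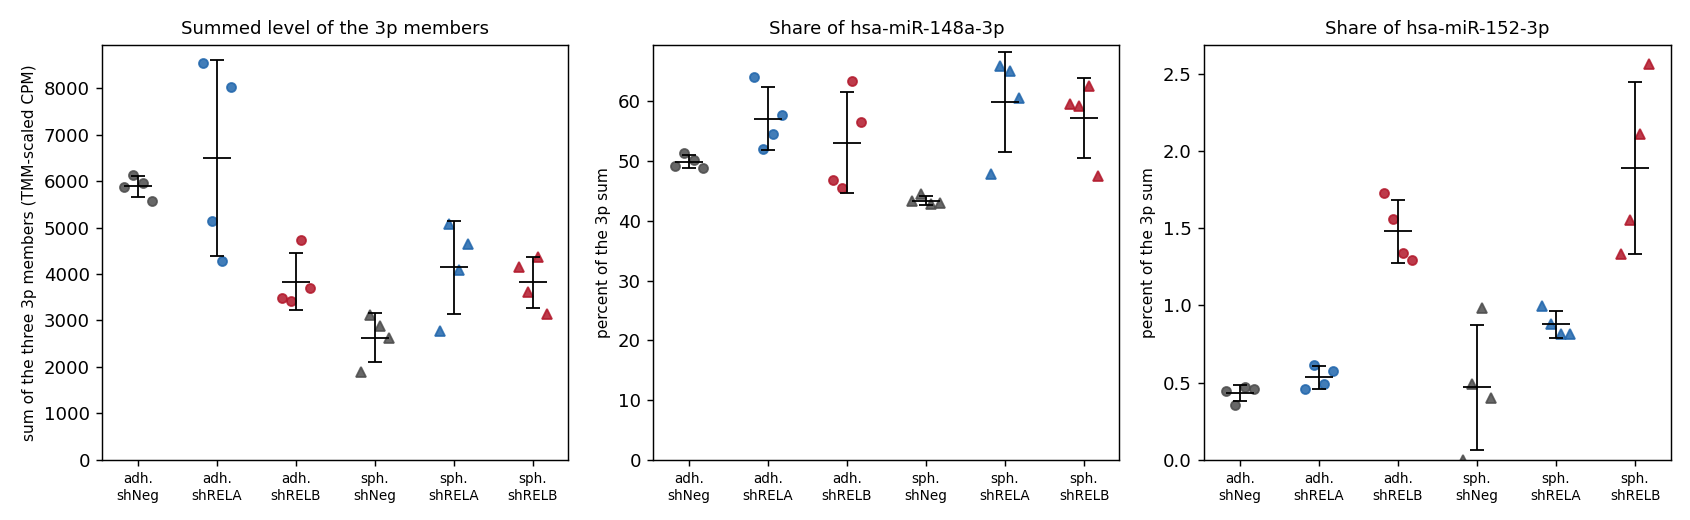
Summed level of the 3 3p members in TMM-scaled CPM (left), and the percent of that sum from hsa-miR-148a-3p (middle) and hsa-miR-152-3p (right), in each library of the 6 groups (marks and bars are mean ± SD, n = 4). The hsa-miR-152-3p share lies at 1.29% or more in all 8 shRELB libraries and below 1% in the other 16.

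Within a locus, the 3p strand was weighed against its own 5p strand, with 0.5 counts added to each. The ratio for miR-148a was 44.2 to 54.0 in adherent shNeg and 57.3 to 97.9 in spheroid shNeg, without overlap. With shRELB it was 35.7 to 57.7 in adherent cells and 59.4 to 132 in spheroids, again without overlap, and with shRELA 45.4 to 72.1 and 37.0 to 109, with overlap. For miR-148b the ratio was 80.8 to 122 in adherent shNeg and 146 to 234 in spheroid shNeg without replicate 1, where the 5p strand had 0 counts. It was 86.0 to 124 and 176 to 353 with shRELB, and 73.3 to 106 and 85.2 to 155 with shRELA. In shNeg and shRELB cells both loci thus gave more 3p per 5p read in spheroids than in adherent cells in every library compared, and the spheroid 5p counts behind this were as low as 11.

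Across the 24 libraries the 2 abundant guides had a Pearson r of 0.71 in log2(CPM + 1), and 0.60 after each group's mean was taken out. The 3p and 5p strands of 1 hairpin stood at 0.75 for miR-148a and 0.81 for miR-148b. hsa-miR-152-3p stood at 0.50 with hsa-miR-148a-3p and at 0.21 with hsa-miR-148b-3p, which became 0.44 and 0.72 after the group means were taken out. The points share libraries and depth, so these values are descriptions. They include spheroid shNeg replicate 1, with 0 counts of hsa-miR-152-3p and hsa-miR-148b-5p and the lowest hsa-miR-148b-3p of its group (1073 CPM). They were not computed without that library, so how far they rest on it was not tested.

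The miRNAs whose levels ran most like each guide were looked for among 330 others with a mean of at least 10 CPM, by Pearson r over the 24 libraries. For hsa-miR-148a-3p they were hsa-miR-151b (0.87) and hsa-miR-151a-5p (0.87), which have nearly the same sequence and may share reads. hsa-miR-151a-5p fell from 331 CPM in adherent shNeg to 67.3 CPM in spheroid shNeg, and stood at 242 CPM with shRELA and 225 CPM with shRELB in spheroids. hsa-miR-148b-3p ran most like hsa-miR-27b-3p (0.94) and hsa-miR-126-5p (0.93). hsa-miR-152-3p ran most like hsa-miR-27a-5p (0.88), at 57.8 CPM in adherent shRELB against 24.8 CPM in adherent shNeg, and hsa-miR-497-5p (0.87). The likeness was partial. In spheroid shRELB hsa-miR-27a-5p was lower than in adherent shRELB, at 29.6 CPM, where hsa-miR-152-3p was higher by mean. hsa-miR-497-5p stood at 20.0 CPM in adherent shNeg and 23.3 CPM in adherent shRELB. These r values include spheroid shNeg replicate 1, with 0 counts of hsa-miR-152-3p, and were not computed without it.

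The family was set beside 8 other miRNAs known to repress DNA methyltransferases, all of which were tested: miR-29a-3p, miR-29b-3p, miR-29c-3p, miR-101-3p, miR-126-3p, miR-143-3p, miR-185-5p and miR-342-3p. In spheroid against adherent shNeg 4 of the 8 were called lower, beside 20.9% of all miRNAs, and 0 higher, with a median log2 value of -0.97. These were hsa-miR-126-3p (-3.12), hsa-miR-185-5p (-2.28), hsa-miR-143-3p (-2.04) and hsa-miR-29c-3p (-1.03). In shRELA cells 7 were called lower, beside 15.8% of all, and 1, hsa-miR-342-3p, higher, beside 16.8%. hsa-miR-342-3p was near the floor, at a mean of 1.38 CPM over all libraries. In spheroid shRELA 3 counts stand for 1.09 to 1.48 CPM by library totals, without TMM scaling. In shRELB cells 5 were called lower, beside 11.4% of all, and 0 higher. The values of this list, here and below, were not examined without spheroid shNeg replicate 1 or under other settings.

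With the knockdowns the calls in the list were all lower than shNeg, but 3 values that passed the FDR without the fold threshold were higher. These were hsa-miR-185-5p in spheroids, at 0.94 with shRELA (FDR 0.00109) and 0.87 with shRELB (FDR 0.00259), and hsa-miR-126-3p in spheroids at 0.81 with shRELA (FDR 0.00402). hsa-miR-143-3p was called with shRELA in both cultures, at -2.58 in adherent cells and -2.48 in spheroids, and hsa-miR-29c-3p in spheroids at -1.59. With shRELB, hsa-miR-126-3p (-1.57), hsa-miR-29a-3p (-1.20) and hsa-miR-29b-3p (-1.18) were called in adherent cells and hsa-miR-29a-3p (-1.36) in spheroids. Over all miRNAs the shares called lower were 2.65% with shRELA and 3.54% with shRELB in adherent cells, and 7.62% and 6.08% in spheroids. Between the knockdowns, 1 of the 8 was called higher and 3 lower with shRELB in adherent cells, beside 6.63% and 4.31% of all miRNAs. In spheroids 1 was called higher, beside 3.87% of all. Of the differences between cultures, hsa-miR-29c-3p was called lower for shRELA (-1.59), beside 3.31% of all miRNAs. For shRELB hsa-miR-126-3p was called higher (1.72), beside 4.64% of all.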

How the data were processed

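The data were 24 small RNA libraries from OV90 cells, 4 in each of 6 groups. Per the labels and the paper's methods, the authors made libraries with a kit that adds unique molecular indices, trimmed adapters with Cutadapt, counted mature miRNAs of miRBase with miRDeep2 and tested them with edgeR, and the labels name GRCh38. Whether the indices were collapsed is not given in the sources used here. The table deposited by the authors is titled as CPM, but its values are estimated counts for each mature miRNA with no scaling. Totals differ between libraries and 3.04% of non-zero values are not whole, and those were rounded. A test was planned for either unit, and that for counts was used.

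Tests were run on the 905 of 2656 miRNAs that reached 1 CPM in 4 or more libraries, which held at least 99.98% of each library's counts. edgeR 4.0.16 (R 4.3.3) gave TMM scaling and quasi-likelihood tests for 11 comparisons, in a model of the 6 groups alone (common dispersion 0.0888). Benjamini-Hochberg FDRs run over all 905 miRNAs. A standard error is the log2 fold change over the square root of F. Totals ran from 959134 to 8283546 counts, intervals of 95% come from the fit, and limits at 0 counts cover counting error only. Nothing says that replicates were separate cultures, so p-values measure the spread between these libraries, which may be technical. No pair of replicates agreed within sampling noise.

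The named miRNAs are the 5 members, hsa-miR-152-5p, the 2 miRNAs most like each 3p member in log2(CPM + 1), and called members of a list of 8. The members and lists were chosen with earlier results of these data known. Sequences came from RefSeq, and hosts and 3′ UTRs from GENCODE release 44, leaving out 121 coding transcripts without a stop codon. Alternatives used DESeq2 1.42.0, limma 3.58.1, other scalings, filters and thresholds, a replicate block, fits of the compared groups alone, and each library left out in turn. The fits were tested on simulated data for a single comparison, with changes well above the fold threshold. Changes near that threshold were not simulated. Reads and the study's other assays were not analysed here.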

Additional observations from a re-analysis of the deposited data

Results flagged for a closer look

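Within groups of 4 libraries, 30 sets of member values were tested for 1 library far from the others, and in 2 the gap to the next library was past the 95% critical value as a part of the whole range. Chance flags about 1 in 20 such sets. Both were in adherent shNeg. For hsa-miR-148a-5p the gap was 0.848 of the range, with replicate 1 at 65.3 CPM above the other 3 at 56.8 to 58.1 CPM. For hsa-miR-148b-3p it was 0.873, with replicate 4 at 2826 CPM below the other 3 at 2947 to 2964 CPM.

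The change of hsa-miR-148a-3p with shRELB differed between the cultures by a log2 value of 1.46 (edgeR interaction contrast, FDR 0.00496), lower with shRELB in adherent cells (-0.51) and higher in spheroids (0.95). In adherent cells the groups overlapped, with 1 of the 4 shRELB libraries at 2998 CPM among the shNeg values, and in spheroids they did not. By library totals the spheroid groups overlapped too, with shNeg replicate 2 at 1887 CPM and shRELB replicate 4 at 1450 CPM.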

How the results depend on the processing

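Of 1815 recomputed values of single members, 1710 kept their direction and their side of the threshold, 32 lost a call, 34 gained one and 39 changed sign, each of the latter a value that was not called. Over the 4 knockdown comparisons the members called numbered 3, and 5 with an FDR below 0.05, no fold threshold, no filter, DESeq2 or the likelihood ratio test, and 1 after a filter at a mean of 10 CPM or under library totals. Over the 3 culture comparisons they numbered 5, and 8 with no fold threshold or no filter, 2 after the filter at 10 CPM, 3 with library totals and 4 to 8 with 1 library left out, the highest without spheroid shNeg replicate 3. Between the knockdowns they numbered 0, 1 with no fold threshold and 0 to 1 with 1 library left out. For the differences between cultures they numbered 1, and 0 after the filter at 10 CPM or under median-ratio size factors, library totals or limma and 0 to 1 with 1 library left out. The cause was not tested. Library totals moved the median of all miRNAs by 0.43 on the log2 scale in spheroid against adherent shNeg and by -0.35 in shRELA against shNeg spheroids.

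Signs changed near 0. In the order filter at 10 CPM, median-ratio size factors, library totals and DESeq2, hsa-miR-148b-3p in spheroids was at -0.13, -0.0701, -0.32 and -0.0699 with shRELA, and at -0.12, -0.0906, -0.22 and -0.0905 with shRELB. Between shRELB and shRELA spheroids it was at 0.0073 with that filter and 0.092 with library totals, and its shRELA difference between cultures was -1.29e-04 with median-ratio size factors, -0.058 with library totals and -4.60e-05 with DESeq2. With library totals hsa-miR-148b-5p was at -0.010 with shRELA in adherent cells and -0.10 with shRELB in spheroids. hsa-miR-152-3p in shRELA spheroids against adherent cells was at -0.093 with no filter, -0.018 with median-ratio size factors, -0.017 with DESeq2 and -0.067 with only the groups compared, and hsa-miR-148a-3p in shRELB cells at -0.12 with no filter. With 1 library left out, the ranges that crossed 0 were -0.050 to 0.35 for hsa-miR-148a-5p, -0.25 to 0.0080 for hsa-miR-148b-3p and -0.090 to 0.32 for hsa-miR-148b-5p with shRELA in adherent cells, -0.029 to 0.18 for hsa-miR-148b-3p with shRELA in spheroids, -0.11 to 0.15 for hsa-miR-148b-3p and -0.22 to 0.47 for hsa-miR-148b-5p with shRELB in spheroids, -0.12 to 0.23 for hsa-miR-152-3p between shRELA cultures, -0.13 to 0.33 for hsa-miR-148a-3p between shRELB cultures and -0.14 to 0.039 for hsa-miR-148b-3p between shRELB and shRELA spheroids.

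Libraries with the same replicate number did not deviate together, with correlations of -0.24 to 0.14, so the numbers were not taken as pairs. The replicate block left 3 members called over the knockdown comparisons and 4 over the culture comparisons, where hsa-miR-148b-5p in shRELA cells was at -1.24 with an FDR of 0.0107, and it changed no other call. The shallow spheroid shNeg libraries limit the low members most.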
